A study of Mus musculus with 12 samples.

Results

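The genes described here encode CD34 and other cell surface antigens that are used to sort stem and progenitor cells. They were Cd34, Podxl, Cd200, Cd44, Cd24a, Ly6a, Prom1, Cd9 and Cd81, taken by symbol with every probe set that the array's annotation ties to exactly 1 gene. For 8 of the 9 genes this gave 14 probe sets out of 34945 tied to 1 gene and 45037 in all. No probe set was tied to Ly6a in the annotation used here, and Ly6a was not analysed here. Cd44 had 4 probe sets, Cd24a had 3, Podxl had 2, and Cd34, Cd200, Prom1, Cd9 and Cd81 had 1 each.

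The measurements came from 12 Affymetrix mouse arrays of skin keratinocytes from mice labelled C57 DBA. Cells that carried CD34 had been parted by magnetic sorting (MACS) from cells that did not, in 3 isolations from pools of at least 6 mice, and each RNA was placed on 2 arrays. Both fractions, CD34+ and CD34-, therefore had 6 arrays from 3 RNA samples, and the labels give no treatment or age and leave unsaid which arrays hold the same RNA. The comparison set keratinocytes with CD34, as carried by stem cells of the follicle bulge, against those without it.

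CD34 and podocalyxin (Podxl) are sialomucins, transmembrane proteins with long, heavily glycosylated outer domains that act in cell adhesion, and CD34 marks the bulge in mouse skin as well as blood progenitors, endothelium, mast cells and some fibroblasts. CD200 is an immunoglobulin-family protein that restrains myeloid cells through its receptor and has been used to enrich follicle stem cells. CD44 binds hyaluronan, CD24 is a small glycosylphosphatidylinositol (GPI) anchored mucin-like protein, CD9 and CD81 are tetraspanins that organise integrins and other partners in the membrane, and prominin 1 (CD133) is a protein of membrane protrusions.

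The reference tables held start-site windows for 6 of the 9 genes. The 3 windows of the sort marker and of the genes with the clearest differences in either direction, are printed here so that the sequence before each start can be seen beside the values. They are the 250 bases before a RefSeq start on GRCm38.p6, given 5′ to 3′ on the gene's strand, and capitals mark GC boxes (GGGCGG or its reverse complement). For Cd200 the gene's bounds reach to 45409060, within the window, so the last bases printed lie inside the gene.
Cd34 (chr1:194938571-194938820, plus strand): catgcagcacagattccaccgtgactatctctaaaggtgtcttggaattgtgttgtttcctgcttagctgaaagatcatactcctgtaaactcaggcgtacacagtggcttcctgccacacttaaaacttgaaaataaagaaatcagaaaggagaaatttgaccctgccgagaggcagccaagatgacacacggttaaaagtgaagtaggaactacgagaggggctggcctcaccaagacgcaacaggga
Cd200 (chr16:45409054-45409303, minus strand): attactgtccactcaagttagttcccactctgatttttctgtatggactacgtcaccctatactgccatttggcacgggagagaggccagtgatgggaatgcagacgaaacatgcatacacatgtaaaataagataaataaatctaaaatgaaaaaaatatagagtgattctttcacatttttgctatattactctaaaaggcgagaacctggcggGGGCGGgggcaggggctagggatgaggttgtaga
Cd9 (chr6:125494761-125495010, minus strand): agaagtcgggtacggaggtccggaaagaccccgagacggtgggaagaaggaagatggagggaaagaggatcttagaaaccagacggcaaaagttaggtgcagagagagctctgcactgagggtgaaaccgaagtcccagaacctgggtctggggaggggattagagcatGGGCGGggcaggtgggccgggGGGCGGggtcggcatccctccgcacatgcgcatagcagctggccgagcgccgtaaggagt
The window of Cd34 held 0 GC boxes, that of Cd200 held 1, starting 34 bases before the start, and that of Cd9 held 2, at 81 and 60 bases. Of 32851 windows of the same length, 32.7% held a GC box. The CCAAT box was in 33.8% of all windows, the TATA box (TATAAA) in 12.4% and the homeodomain motif TAATTA in 4.84%, and 0 of the 3 windows printed held any of them on either strand. The GC content was 46.4% before Cd34, 42.4% before Cd200 and 61.6% before Cd9, against a median of 52.4% over all windows. These are descriptions of the letters in these windows and show no binding site.

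All values below are log2 RMA values, a level is the mean over 6 arrays with its standard deviation, and a difference is CD34+ minus CD34- with limma's standard error. Tests were limma's, two-sided, with p adjusted by Benjamini-Hochberg over all 45037 probe sets for the surface antigens and over 18193 genes, 1 probe set each, for the lists of other genes. A probe set was called when its adjusted p was under 0.05. Arrays that share RNA entered as separate samples, which makes p-values too small if arrays of one RNA resemble each other, and n = 6 stands for 3 RNA samples. Bacterial Trpn controls, at 2.31 to 2.95, mark the low end of the scale. In bulk RNA, fewer cells that carry a transcript and less of it per cell cannot be told apart.

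The fractions also differed in array quality. CD34+ arrays 1, 3 and 5 had a spread over probe sets of 1.92 to 2.07 (SD), against 2.19 to 2.32 on the other arrays. Actb read higher by its 3' than by its 5' controls, by 3.95 to 5.65 in CD34+ and by 1.82 to 3.24 in CD34- arrays. This gap was largest on CD34+ array 2, and arrays 4 and 6 also lay above the CD34- range. Leaving out CD34+ arrays 1, 3 and 5 therefore keeps this difference between fractions. Basal keratinocyte markers read high in both fractions but 5 of 8 were lower in CD34+ cells and 0 higher (limma, 0 higher unadjusted), with a median of -0.62. Krt5 read 12.2 and 13.2 in CD34+ and CD34- arrays (-1.04, limma adjusted p = 0.00123) and Krt14 11.8 and 13.2 (-1.37, adjusted p = 0.00102), while Krt15, at 13.2 and 13.5, did not pass (adjusted p = 0.106). Over all genes 7.99% were called higher and 18.1% lower. The marker lists were chosen with earlier results of these data known, so their counts are descriptions only. All 10 bulge markers tested were higher in the CD34+ fraction. T cell markers were lower there, 9 of 9, with list means of 5.14 to 6.12 against 6.86 to 7.78, and 8 of 12 fibroblast markers were higher, with list means of 4.77 to 6.07 against 3.65 to 4.38. The part of these quantities in the results was not tested. Differences without CD34+ arrays 1, 3 and 5 are given for the members whose values they moved and for some of the other genes.

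**Figure D1:**
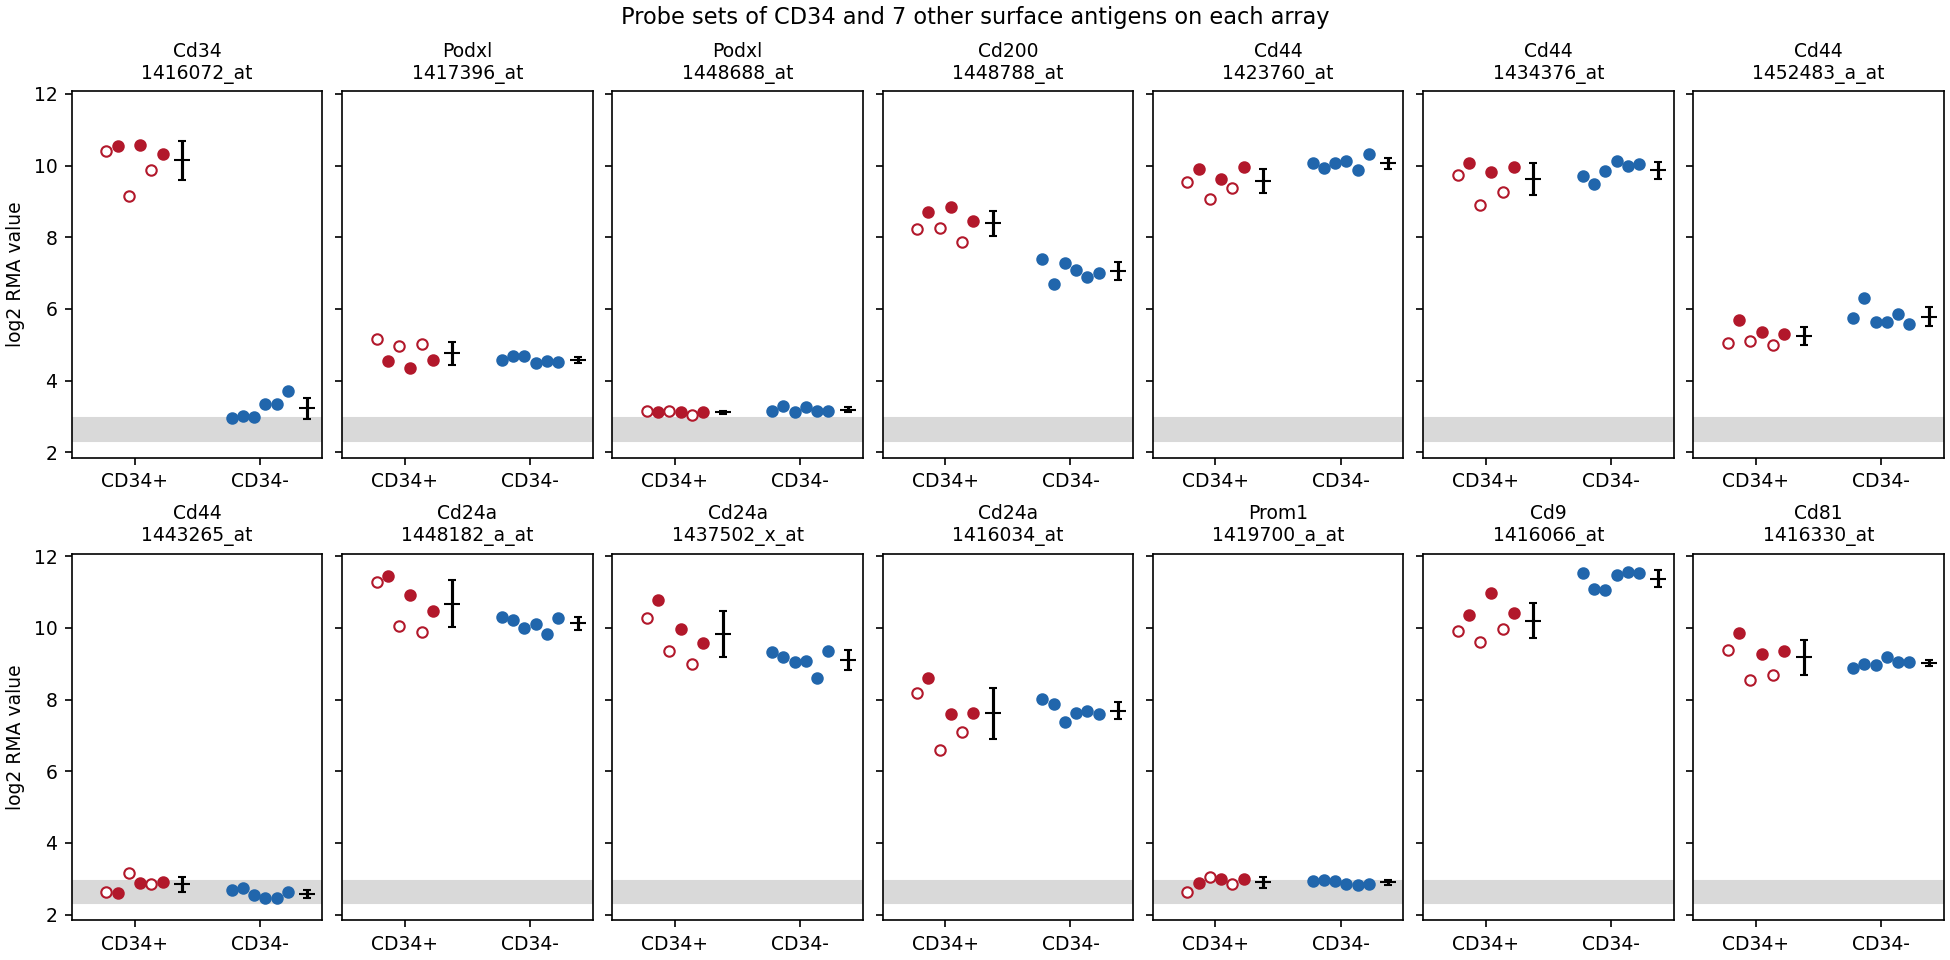
Each panel is 1 probe set, with the log2 RMA value of every array of the CD34+ fraction (red) and the CD34- fraction (blue), in array order from 1 to 6. Open circles are CD34+ arrays 1, 3 and 5, black bars the mean and SD over 6 arrays, and the grey band the Trpn control range of 2.31 to 2.95. The fractions are apart for Cd34, Cd200 and Cd9 and overlap in every other panel.

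Leaving the sort marker aside, 13 probe sets of 7 genes were tested. Of these, 1 was higher in CD34+ cells (Cd200) and 3 were lower (Cd9 and 2 of the 4 for Cd44), while 9 did not pass. Among all probe sets 7.64% were called higher and 13.9% lower, 21.5% in either direction, so the 1 of 13 that was higher is near the background share. The arrays of the fractions did not overlap for 2 of the 13, Cd200 and Cd9, against 10.9% of all probe sets. The 64.6% of all calls that were lower became 78.9% after centring each array on its median and 52.8% without CD34+ arrays 1, 3 and 5.

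Cd34 served to sort the cells, so its values check the labels and are given with no test. The CD34+ arrays 1 to 6 read 10.42, 10.54, 9.14, 10.57, 9.88 and 10.33. The CD34- arrays read 2.95, 3.01, 2.98, 3.35, 3.35 and 3.71. All CD34+ arrays were far above all CD34- arrays, and array 3 was the lowest of the CD34+ fraction. The levels were 10.15 ± 0.55 and 3.23 ± 0.30 (SD, n = 6), a difference of 6.92 that ranks 1 of 45037 probe sets. In CD34- cells the probe set read at or just above the upper edge of the Trpn controls, with its lowest array at 2.95, so the transcript was at the low end of the scale there. The difference lay between 6.72 and 7.25 under the other settings.

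Other cell types of skin that carry CD34 were looked at beside it. Of 12 endothelial markers 0 were called, with 3 higher at an unadjusted p under 0.05 (limma), and the list had means of 3.64 to 4.08 in CD34+ and 3.62 to 3.69 in CD34- arrays. Its genes of highest level, Eng (5.89 in CD34+ and 5.64 in CD34- arrays) and Kdr (5.02 and 4.91), were above the low mark and did not pass (adjusted p = 0.0888 and 0.514). Pecam1 (3.31 and 3.06) and Cdh5 (3.11 and 2.94), which define the cell type, were close to that mark. Of 9 mast cell markers 0 were called, with 4 higher unadjusted, and list means were 3.50 to 4.34 in CD34+ and 3.36 to 3.63 in CD34- arrays. Of 12 fibroblast markers 8 were higher in CD34+ cells, among them Col1a2 (3.15, limma adjusted p = 1.5e-06) and Col5a2 (3.02, adjusted p = 5.82e-05). The receptors Pdgfrb (4.03 in both fractions, adjusted p = 0.995) and Pdgfra (adjusted p = 0.206) did not pass. Neither did Col3a1 (adjusted p = 0.0749) and Mfap5 (adjusted p = 0.168). Of 8 haematopoietic progenitor genes 3 were lower and 0 higher, with Cd48 (-1.31) and Ikzf1 (-1.78), both also genes of lymphocytes, among them. Melanocyte markers had 2 higher and 1 lower of 8, smooth muscle and pericyte markers 3 higher and 0 lower of 8, and adipocyte markers 0 called of 5 (limma, 1 higher unadjusted). Over all genes 7.99% were called higher and 18.1% lower. Of those 3 smooth muscle and pericyte genes, Myh11 (3.06 and 2.77) and Rgs5 (3.37 and 3.00) were near the low mark, and Cspg4 (7.54 and 6.75) was above it. Acta2, at 7.71 and 7.29, did not pass (limma adjusted p = 0.56).

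Podocalyxin, the closest relative of CD34 among these antigens, was called by neither of its probe sets. Its probe set 1417396_at had a lowest, median and highest array of 4.36, 4.77 and 5.15 in CD34+ cells and of 4.49, 4.56 and 4.68 in CD34- cells. The fractions overlapped, and the 3 highest CD34+ arrays were 1, 3 and 5. The difference was 0.18 (SE 0.13, 95% interval -0.10 to 0.47, limma adjusted p = 0.324). It was -0.09 without CD34+ arrays 1, 3 and 5 and 0.44 (adjusted p = 0.0297) on odd-numbered arrays alone, where it passed. The second probe set, 1448688_at, read 3.03 to 3.16 in CD34+ and 3.13 to 3.29 in CD34- arrays, close to the low end in both, with a difference of -0.07 (adjusted p = 0.443).

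Endoglycan (Podxl2), the third member of the sialomucin family, was higher in CD34+ cells at a low level, with no overlap between fractions. Its arrays ran from 3.30 to 3.89 in CD34+ and from 2.97 to 3.27 in CD34- cells, a difference of 0.43 (SE 0.11, limma adjusted p = 0.00993). The call was lost after a further quantile normalization (0.28, adjusted p = 0.134). With even-numbered arrays alone it did not pass either (adjusted p = 0.0634). Of the 16 measured partners and adaptors of the family, 2 were higher and 4 lower, where 26.1% of all 18193 genes were called, 7.99% higher and 18.1% lower, and the list's median was 0.10 against 0.04 over all genes. The other higher gene was the sialyltransferase St3gal4 (0.47, adjusted p = 0.0198), lost without the 3 arrays (adjusted p = 0.0982). Podxl2 and St3gal4 were named after their values were seen.

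Proteins that tie sialomucins and CD44 to the actin cortex made up 3 of the 4 lower genes. Ezrin (Ezr) fell from a CD34- median of 10.76 to a CD34+ median of 9.77, a difference of -1.06 (SE 0.25, limma adjusted p = 0.00597), and CD34+ array 4 (10.28) lay just above the lowest CD34- array (10.22). By 1 of its 2 probe sets it was lower, and without CD34+ arrays 1, 3 and 5 the difference was -0.56 (adjusted p = 0.0283). Radixin (Rdx) was lower without overlap, at 9.15 to 10.21 against 10.26 to 10.60 (-0.64, adjusted p = 0.0135), in 2 of 3 probe sets, a call lost on even-numbered arrays (adjusted p = 0.136). Moesin (Msn), the remaining protein of this family, read 9.48 and 9.49 and did not pass (-0.01, adjusted p = 0.977). The scaffold gene Slc9a3r2 of the same list did not pass either (0.11, limma adjusted p = 0.589). Of its 6 probe sets 2 were called higher and 0 lower. The scaffold Slc9a3r1, which binds podocalyxin and ezrin, was at -0.53 (adjusted p = 0.0351), and the adaptor Crkl, which binds CD34, at -0.66 (adjusted p = 0.0256). Both lost their call without CD34+ arrays 1, 3 and 5 (adjusted p = 0.418 and 0.261). They also lost it on leaving out any 1 of 8 arrays for Slc9a3r1 (all but CD34+ 2, 4 and 6 and CD34- 3) and of 5 for Crkl (CD34+ 1 and 5, CD34- 4, 5 and 6), with adjusted p up to 0.0823 and 0.0592.

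Cd200 had the highest difference toward CD34+ cells among the members after the sort marker. Its probe set read 8.23, 8.71, 8.27, 8.84, 7.87 and 8.45 on CD34+ arrays 1 to 6. On CD34- arrays it read 7.40, 6.70, 7.29, 7.08, 6.90 and 7.01. Every CD34+ array lay above every CD34- array, by at least the gap from 7.40 to 7.87. The levels were 8.39 ± 0.35 and 7.06 ± 0.25 (SD, n = 6), a 2.51-fold difference (1.33, SE 0.17, 95% interval 0.97 to 1.69, limma adjusted p = 0.000121), rank 446 of 45037. It passed under every setting tried, at 0.93 on odd-numbered arrays (adjusted p = 0.00725), 1.73 on even-numbered arrays (adjusted p = 0.00334) and 1.60 without CD34+ arrays 1, 3 and 5 (adjusted p = 0.000119).

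The receptors that CD200 engages on other cells lay close to the low mark in both fractions. Cd200r1 read 3.24 in CD34+ and 3.23 in CD34- arrays, Cd200r3 2.55 and 2.44, and Cd200r4 2.50 and 2.37, and none was called. Of 12 measured receptors and related immune ligands, 0 were higher (limma, 2 at an unadjusted p under 0.05) and 2 lower, against 7.99% and 18.1% of all genes. Cd276, an immune ligand of the B7 family, was lower without overlap, at 4.55 to 5.24 in CD34+ and 5.51 to 5.97 in CD34- arrays (-0.88, SE 0.14, adjusted p = 0.00041). Cd274 (PD-L1) was at -0.43 (adjusted p = 0.0348), a call lost without the 3 arrays (adjusted p = 0.115) and on leaving out one of 7 arrays (CD34+ 1, 4 or 5, CD34- 1, 3, 4 or 5) (adjusted p up to 0.0834). The signal against phagocytosis Cd47 stood at 9.15 and 8.98 and did not pass (0.17, adjusted p = 0.445). Langerhans and myeloid markers, whose cells would bear these receptors, had 5 of 12 lower and 0 higher in CD34+ cells (limma), with list means of 5.31 to 5.50 against 5.69 to 6.25.

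The probe sets of Cd44 differed among themselves. The probe set 1423760_at had a lowest, median and highest array of 9.06, 9.59 and 9.96 in CD34+ and of 9.86, 10.07 and 10.32 in CD34- cells. It was lower in CD34+ cells by a small amount (-0.48, SE 0.15, limma adjusted p = 0.0304), and 2 CD34+ arrays, 2 and 6, lay within the CD34- range. The probe set 1452483_a_at was lower too, at 4.99 to 5.69 against 5.57 to 6.29 (-0.54, SE 0.15, adjusted p = 0.0183), with CD34+ array 2 within the other range. The third, 1434376_at, read 8.89 to 10.08 and 9.48 to 10.14 and did not pass (-0.24, 95% interval -0.66 to 0.18, adjusted p = 0.378). The fourth, 1443265_at, lay at the low end in both fractions (2.85 and 2.58) and did not pass (0.26, adjusted p = 0.0859).

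The lower calls of Cd44 lay near the threshold and changed with the set of arrays used. Without CD34+ arrays 1, 3 and 5 no Cd44 probe set passed (limma), with 1423760_at at -0.23 (adjusted p = 0.243), 1452483_a_at at -0.34 (adjusted p = 0.212) and 1434376_at turned to 0.09. On even-numbered arrays the first 2 of these did not pass either (adjusted p = 0.355 and 0.417). The call of 1423760_at was also lost on leaving out one of 6 arrays (CD34+ 1 or 5, CD34- 1, 3, 4 or 6) (adjusted p 0.0533 to 0.0686), and after a further quantile normalization (-0.22, adjusted p = 0.0983). Its difference ran from -0.56 to -0.38 on leaving out 1 array. The call of 1452483_a_at was kept whichever 1 array was left out (adjusted p up to 0.0447). The probe set 1443265_at passed, as higher, without CD34+ array 2 (adjusted p = 0.0463). CD44 is also an antigen of T cells, whose markers were lower in the CD34+ fraction (list median -1.90), and its part in the difference was not tested.

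Of 19 measured genes for CD44 ligands, partners, hyaluronan enzymes and processing, 3 were higher and 5 lower, against 7.99% and 18.1% of all genes, with a median of -0.06. Leaving out CD34+ arrays 1, 3 and 5 left 2 in each direction. Has2, a hyaluronan synthase, was higher without overlap (4.41 to 5.84 against 3.27 to 4.31), with a difference of 1.40 (SE 0.26, limma adjusted p = 0.00138) and both of its probe sets called. Without the 3 arrays it was 1.33 (adjusted p = 0.0128). Its relative Has3 and the hyaluronidase Hyal2 were lower (-0.73 and -0.54, adjusted p = 0.019 and 0.00482), both named after their values were seen, and the call of Hyal2 was lost without the 3 arrays (adjusted p = 0.0611). The integrin chain Itga4, which can act with CD44 in adhesion, was higher at 4.99 to 5.56 against 3.91 to 4.24 (1.25, SE 0.11, adjusted p = 7.48e-06), by 2 of its 5 probe sets with no other lower. Hmmr, a hyaluronan-binding protein of the mitotic spindle, fell by 0.83 (adjusted p = 0.00316), in 3 of 5 probe sets. Cd74, which pairs with CD44 as a receptor and is also the invariant chain of MHC class II, was at -0.77 (adjusted p = 0.0123), lost without the 3 arrays (adjusted p = 0.132). The remaining higher gene, the proteoglycan Vcan (0.35, adjusted p = 0.0375, named after its value was seen), had 1 of 8 probe sets called, and its call was lost without the 3 arrays (adjusted p = 0.302) and on leaving out any 1 of 7 arrays (CD34+ 1, 3, 5 and 6, CD34- 1, 4 and 5).

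Cd24a had its highest values in CD34+ cells, but the CD34+ arrays were spread too widely for a call. Probe set 1448182_a_at read 11.28, 11.45, 10.04, 10.91, 9.88 and 10.48 on CD34+ arrays 1 to 6, and 10.29, 10.23, 10.00, 10.12, 9.83 and 10.27 on CD34- arrays. Arrays 1, 2, 4 and 6 of the CD34+ fraction lay above all CD34- arrays, and arrays 3 and 5 lay among them. The difference was 0.55 (SE 0.25, 95% interval 0.02 to 1.08, limma adjusted p = 0.123). Probe set 1437502_x_at, of a type whose probes can also match other transcripts, followed the same order of arrays, at 8.99 to 10.77 against 8.60 to 9.36 (0.72, adjusted p = 0.0597). The third, 1416034_at, had levels of 7.61 ± 0.72 and 7.69 ± 0.23 (SD, n = 6) and a difference of -0.08 (95% interval -0.67 to 0.51, adjusted p = 0.849).

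Without CD34+ arrays 1, 3 and 5, 2 Cd24a probe sets were called higher, 1448182_a_at at 0.83 (limma adjusted p = 0.0137) and 1437502_x_at at 1.00 (adjusted p = 0.0183), while 1416034_at turned to 0.24 (adjusted p = 0.545). Both also passed after a further quantile normalization (0.80 and 1.00, adjusted p = 0.00793 and 0.00479) and without CD34+ array 5 (adjusted p = 0.0442 and 0.0189). Probe set 1437502_x_at also passed without CD34+ array 3 (adjusted p = 0.0468). With means of arrays 1-2, 3-4 and 5-6 neither passed. In all 3 probe sets CD34+ arrays 1 and 2 read highest.

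Of the tetraspanins, Cd9 was lower in CD34+ cells and Cd81 did not pass. Cd9 read 9.90, 10.36, 9.61, 10.97, 9.96 and 10.41 on CD34+ arrays 1 to 6. On CD34- arrays it read 11.53, 11.09, 11.04, 11.47, 11.55 and 11.54. All CD34+ arrays lay below all CD34- arrays, although CD34+ array 4 came close to the lowest of them. The levels were 10.20 ± 0.48 and 11.37 ± 0.24 (SD, n = 6), with a difference of -1.17 (SE 0.20, 95% interval -1.60 to -0.74, limma adjusted p = 0.00107), 2.25-fold lower and rank 1119 from the lowest of 45037. It was -0.79 without CD34+ arrays 1, 3 and 5 (adjusted p = 0.0105) and -0.79 on even-numbered arrays of both fractions, 3 against 3, where it did not pass (adjusted p = 0.0767).

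Cd81 had a lowest, median and highest array of 8.54, 9.31 and 9.84 in CD34+ cells and of 8.89, 9.02 and 9.17 in CD34- cells. The CD34+ arrays lay on both sides of the narrow CD34- range, with 3 and 5 below it and 1, 2, 4 and 6 above it. The difference of 0.16 did not pass (SE 0.18, 95% interval -0.24 to 0.56, limma adjusted p = 0.542). Leaving out CD34+ arrays 1, 3 and 5 it passed (0.47, adjusted p = 0.0303) and after a further quantile normalization (0.45, adjusted p = 0.0104), and was -0.10 on odd-numbered arrays.

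Of 30 other tetraspanins and their partners measured, 2 were higher and 9 lower, against 7.99% and 18.1% of all genes, with a median of -0.18. Tspan2 was higher without overlap, at 5.98 to 8.50 against 4.47 to 4.74 (2.32, SE 0.31, limma adjusted p = 0.000147), in all 3 of its probe sets, with CD34+ arrays 1 and 2 highest. The other, Tspan32 (0.40, adjusted p = 0.0488, named after its value was seen), passed with no probe set when adjusted over all probe sets, and lost its call without the 3 arrays (adjusted p = 0.178) and on leaving out any 1 of 8 arrays (CD34+ 1, 3 and 5, CD34- 1, 3, 4, 5 and 6). Among the lower genes, the interferon-induced membrane protein Ifitm3 fell by 1.35 (adjusted p = 0.000104), and Icam1, an adhesion receptor for leukocytes, fell by 1.18 (adjusted p = 0.00223), with both calls lost on even-numbered arrays (adjusted p = 0.0507 and 0.198). Without CD34+ arrays 1, 3 and 5 Icam1 was at -0.78 (adjusted p = 0.0328). The leukocyte tetraspanin Cd53 fell by 1.20 (adjusted p = 8.22e-05, by 1 of 2 probe sets), beside the lower T cell markers, and was at -1.20 without the 3 arrays (adjusted p = 0.000975). The keratinocyte tetraspanin Cd151 read 11.57 and 11.42 and did not pass (0.15, adjusted p = 0.565). Ptgfrn and Igsf8, immunoglobulin-family partners of CD9 and CD81, were at -1.14 and -0.63 (adjusted p = 0.00416 and 0.00366), named after their values were seen. Both lost their call on even-numbered arrays (adjusted p = 0.224 and 0.109). Ptgfrn was called by 1 of 2 probe sets, and Igsf8 did not pass after quantile normalization (-0.34, adjusted p = 0.097).

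Prom1 lay at the low end of the scale in both fractions. Its probe set read 2.64 to 3.05 in CD34+ and 2.82 to 2.98 in CD34- arrays, across the upper edge of the Trpn controls, with a difference of 0.00 (95% interval -0.18 to 0.19, limma adjusted p = 0.974). Its relative Prom2, a prominin of epithelia, was well above that level and lower in CD34+ cells without overlap, at 5.79 to 8.11 against 8.42 to 9.02 (-1.94, SE 0.32, adjusted p = 0.000612), by 1 of 2 probe sets. CD34+ array 4 was the nearest to the other fraction, and the call was lost on even-numbered arrays (adjusted p = 0.0627). Without CD34+ arrays 1, 3 and 5 the difference was -1.40 (adjusted p = 0.00596).

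Of 25 genes for LY6 and other GPI-anchored antigens, 7 were lower and 1 higher, against 18.1% and 7.99% of all genes, with a median of 0.04. Ly6e was lower without overlap, at 6.07 to 7.86 against 8.86 to 9.57 (-2.14, SE 0.27, limma adjusted p = 0.000102), in both of its probe sets. Ly6d, a LY6 protein of stratified epithelium, was at -1.64 (adjusted p = 0.000624), and Lypd3 at -1.28 (adjusted p = 0.000173), with the call of Ly6d lost on even-numbered arrays (adjusted p = 0.0879). Thy1, an antigen of mouse T cells, was at -1.90 (adjusted p = 0.000357) and is also 1 of the T cell markers above. Without CD34+ arrays 1, 3 and 5 it was at -1.47 (adjusted p = 0.0027). Lypd6 was higher (0.98, adjusted p = 0.00597, by 1 of 3 probe sets, named after its value was seen), and did not pass on even-numbered arrays (adjusted p = 0.0896).

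Of 37 other surface antigens of skin and stem cells, 5 were higher and 15 lower, against 7.99% and 18.1% of all genes, with a median of -0.13. The lower count was 8 without CD34+ arrays 1, 3 and 5 and 4 on even-numbered arrays. Mme (CD10), a membrane peptidase, ran from 4.91 to 7.84 in CD34+ arrays and from 2.44 to 2.86, within the Trpn range, in CD34- arrays. Set against the highest Trpn control in place of the CD34- values, it was higher in CD34+ cells by at least 3.70 on the log2 scale. The test was of the difference from the CD34- values, 4.02 (limma adjusted p = 8.14e-06). Without the 3 arrays that difference was 4.415 (adjusted p = 4.09e-06). Nt5e (CD73), an ecto-enzyme that makes adenosine, was higher at 6.66 to 9.39 against 4.78 to 6.01 (2.73, SE 0.38, adjusted p = 0.000201), by 2 of 3 probe sets, and was at 3.41 without the 3 arrays (adjusted p = 2.66e-05). The stem cell receptor Lgr5 was at 4.18 (adjusted p = 9.95e-07), and at 4.82 without the 3 arrays (adjusted p = 1.42e-07). Lower genes next in size after Prom2, named after their values were seen, included Cd55, a GPI-anchored inhibitor of complement (-1.33, adjusted p = 0.00174), and the efflux transporter Abcg2 (-1.26, adjusted p = 0.000108). Without the 3 arrays they were at -0.84 (adjusted p = 0.0227) and -0.98 (adjusted p = 0.000777), and Cd55 did not pass on even-numbered arrays (adjusted p = 0.0587). The integrin chain Itgb4, also a basal keratinocyte marker, was at -1.18 (adjusted p = 0.00626), a call lost without the 3 arrays (adjusted p = 0.0998). The other 2 higher genes, named after their values were seen, were Sdc1 (0.66, adjusted p = 0.0213, by 1 of 4 probe sets), which did not pass after median centring (adjusted p = 0.0673), and Procr (0.48, adjusted p = 0.0312). Procr lost its call after median centring (adjusted p = 0.121), after quantile normalization (adjusted p = 0.184) and on leaving out any 1 of 6 arrays (CD34+ 1, CD34- 1, 3, 4, 5 and 6). Alcam was not called by its probe set of highest mean (1.11, limma adjusted p = 0.0632). Of its 5 probe sets 3 were called higher and 0 lower. Some fibroblasts carry CD73 and CD10, and the higher fibroblast markers stand beside these values. Their part in them was not tested.

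**Figure D2:**
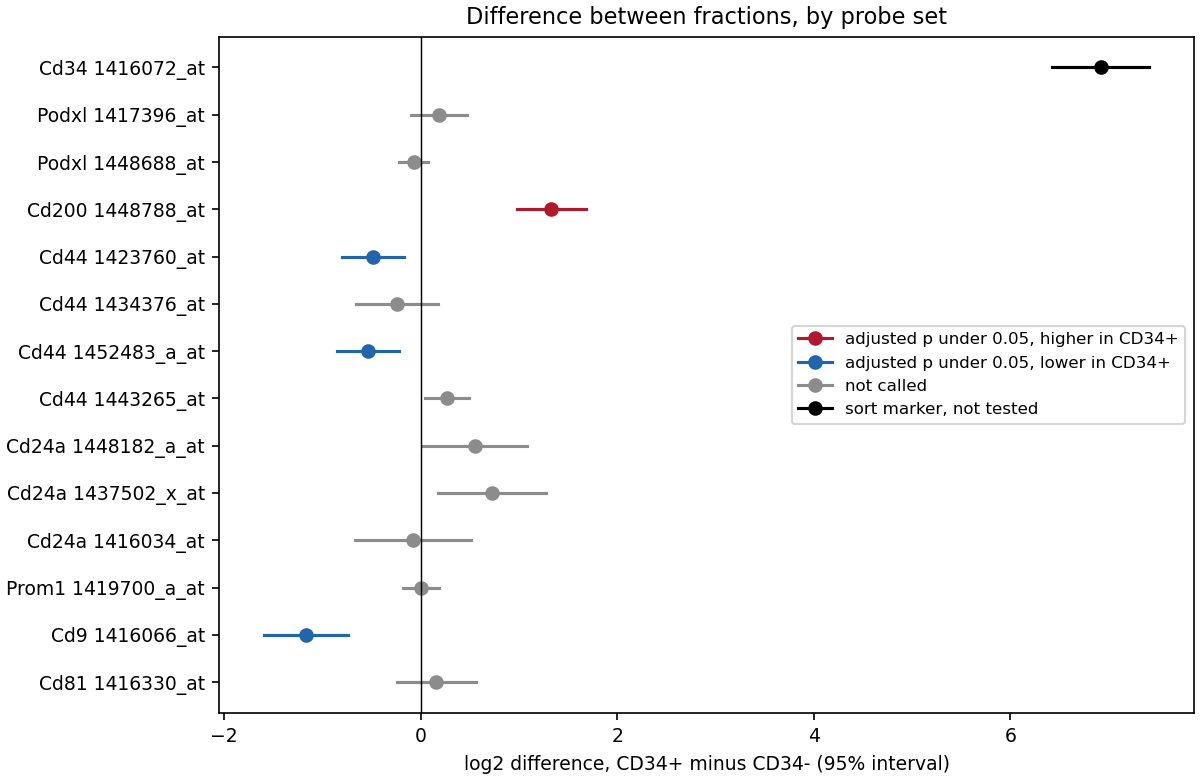
The log2 difference between fractions (CD34+ minus CD34-, x axis) of each of the 14 probe sets, with its 95% interval from limma. The sort marker Cd34 lies at 6.92, Cd200 at 1.33 and Cd9 at -1.17, and 9 of the 13 tested probe sets (grey) were not called.

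**Figure D3:**
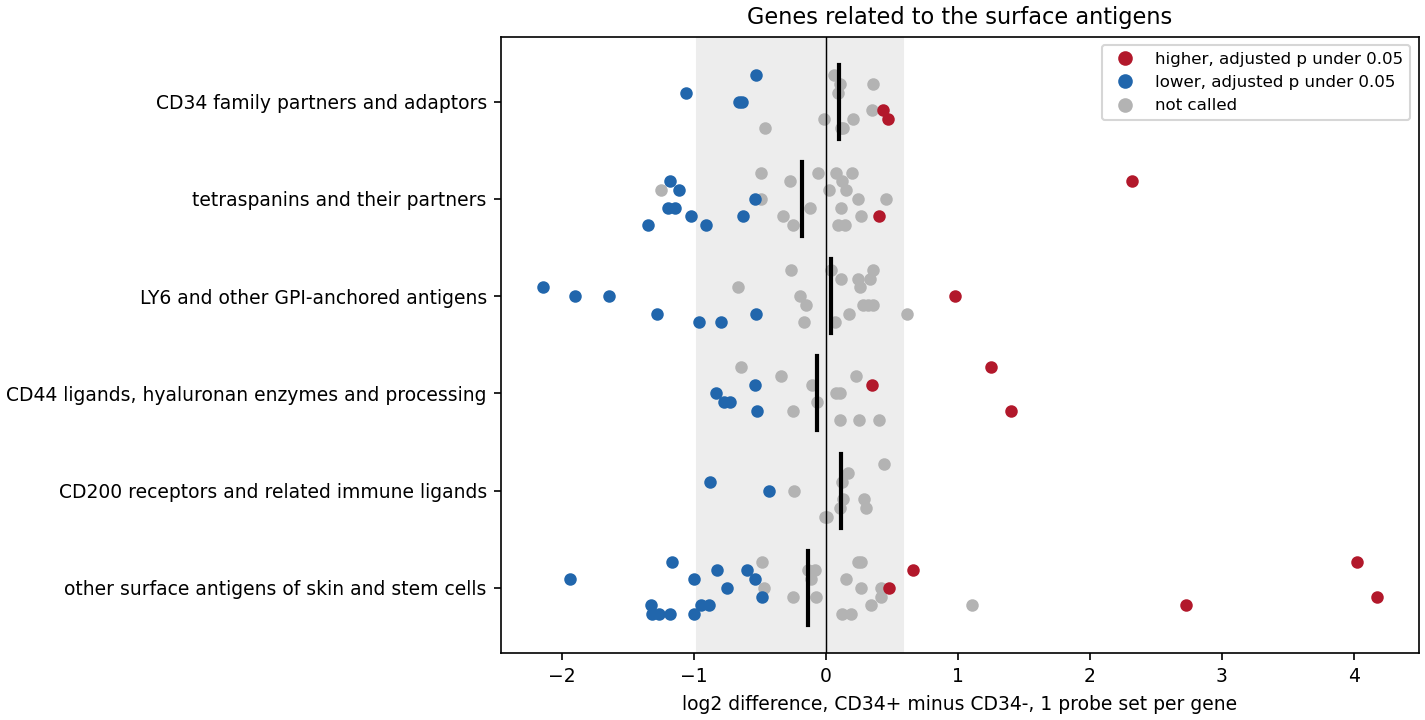
The log2 difference between fractions (x axis) of every measured gene in the 6 lists of related genes, 1 probe set per gene, with the list's median as a black bar. The grey band runs from the 5th to the 95th percentile of all 18193 genes (-0.98 to 0.58), and calls are blue (lower) or red (higher), with more lower than higher in each list as over all genes, where 69.4% of calls were lower.

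The genes whose profile over the 12 arrays was most like that of Cd34, by Pearson's r among probe sets above the Trpn range, were Cacna1c, Tgm5, Il31ra, Tbx1 and Fgf18 (r = 0.996 to 0.992). These are descriptions over arrays that share RNA, and for Cd34 the step between fractions sets most of r. For deviations from the fraction means, the values were 0.65 for Cacna1c, 0.91 for Tgm5, 0.74 for Il31ra, 0.72 for Tbx1 and 0.71 for Fgf18. Nearest to Cd200 were Nkd1 (r = 0.975) and Med12l (r = 0.968), at 5.21 against 3.31 and 6.47 against 4.26 in CD34+ and CD34- cells. Cd9 was followed most closely by H2-D1 (r = 0.992, by a probe set that can match other transcripts) and Chtop (r = 0.985). The nearest to Cd81 were Vps29 (0.966) and Rab28 (0.963), to Cd44 Nkapd1 (0.986) and Rock1 (0.985), and to Cd24a Odc1 (0.960) and Ptpn12 (0.951), both by probe sets that can match other transcripts. Podxl, whose 3 highest CD34+ arrays were 1, 3 and 5, had Rspo2 (0.973) and Actn1 (0.970). Prom1 had Becn2 (0.897) and Tex15 (0.847), from a nearly flat profile. For the first-named gene of each of these members, r of deviations was 0.83 (Nkd1), 0.97 (H2-D1), 0.97 (Vps29), 0.97 (Nkapd1), 0.95 (Odc1), 0.97 (Rspo2) and 0.91 (Becn2). Outside Cd34, arrays of a fraction thus also varied together for these pairs of genes. For Cd200 and Cd9, whose fractions did not overlap, the step between fractions enters r too. The shares were not measured.

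The 3 CD34+ arrays with a narrow spread read lower for several members. The mean of CD34+ arrays 1, 3 and 5 was below that of arrays 2, 4 and 6 for Cd34 (9.81 against 10.48), Cd200 (8.12 against 8.66), Cd9 (9.82 against 10.58), Cd81 (8.87 against 9.49) and all 3 probe sets of Cd24a. The same held for Cd44 1423760_at (9.32 against 9.83), 1434376_at (9.30 against 9.96) and 1452483_a_at (5.05 against 5.45). For Podxl 1417396_at the mean of arrays 1, 3 and 5 was above (5.04 against 4.49), as for Cd44 1443265_at at the low end (2.89 against 2.81). In CD34- arrays the same split gave 11.37 on both sides for Cd9 and 8.96 against 9.07 for Cd81. The difference of Cd200 was thus larger and that of Cd9 smaller without those arrays, and both kept their direction under all settings tried.

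**Figure D4:**
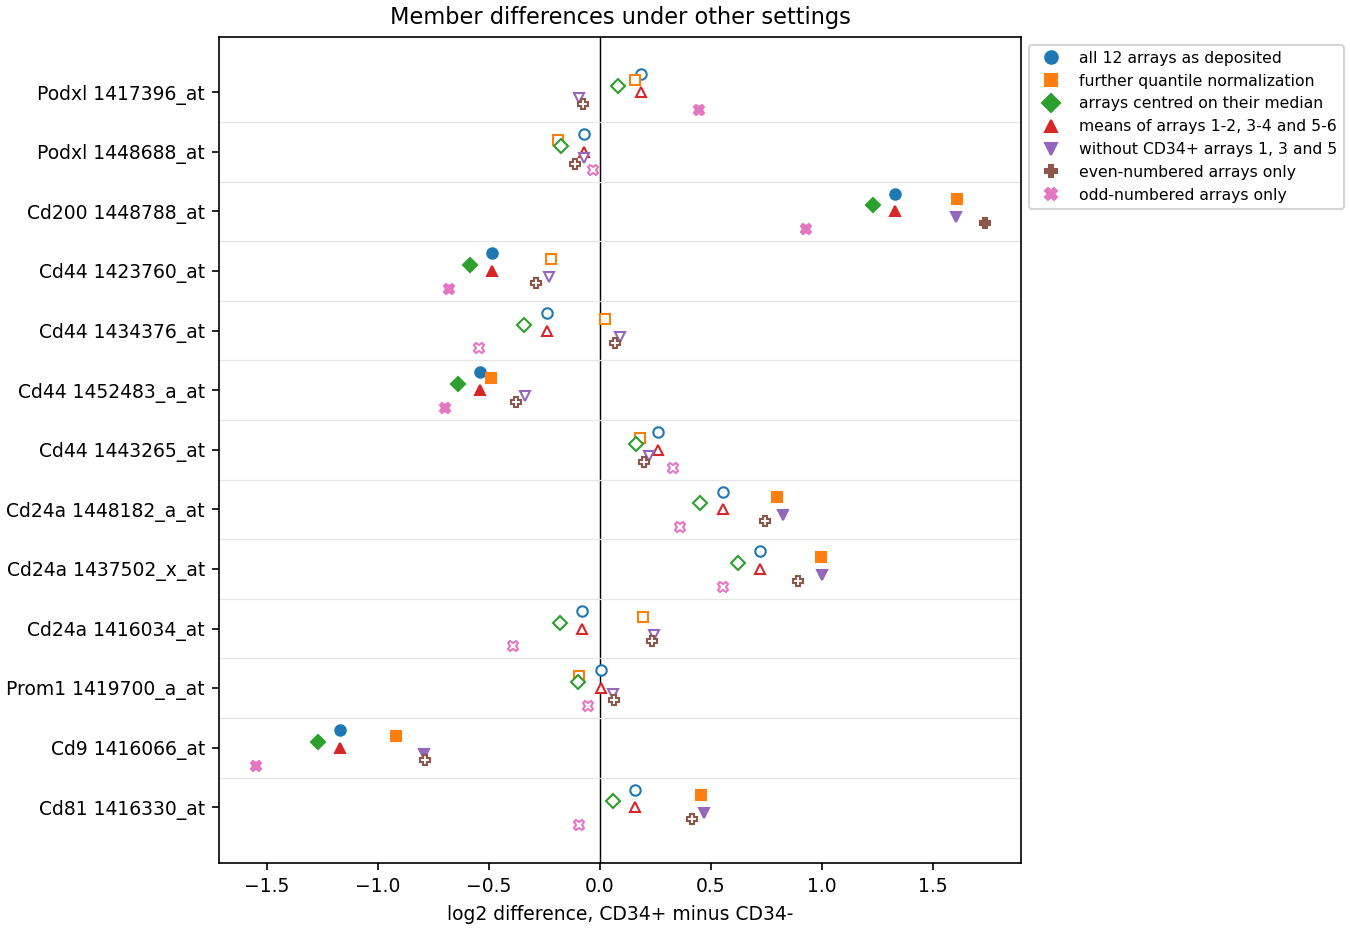
The log2 difference between fractions (x axis) of the 13 tested probe sets under 7 settings, shown as symbols, filled where the adjusted p was under 0.05. Cd200 is filled throughout, Cd9 throughout but on even-numbered arrays (-0.79), and 2 Cd24a probe sets and Cd81 are filled after quantile normalization and without CD34+ arrays 1, 3 and 5.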

How the data were processed

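Expression had been measured on 12 arrays, 6 per fraction. The deposited values are log2 intensities summarised per probe set. Per the submitters' processing notes the authors used RMA; its version, and if all arrays entered 1 run, are not given in the sources used here. RMA shrinks differences near the low end of the scale. From these values, 64 control probe sets were set aside and limma 3.58.1 in R 4.3.3 (lmFit, eBayes, no block) was fitted to 45037 probe sets, and to 18193 genes by their probe set with the highest mean. Of the probe sets, 34945 were tied to 1 gene, 932 to several and 9160 stayed unnamed here, with symbols updated through Entrez identifiers. The fit was tested on simulated data with independent arrays, which cannot check p-values where arrays share RNA. The members and gene lists were chosen with earlier results of these data known. Genes of each related list were named by size of difference, up to 4 among those called, and cell type genes by level or size, and members' nearest genes by Pearson's r over 12 arrays among probe sets above the highest Trpn control. Genes outside these rules were chosen after their values were seen. Alternatives were a further quantile normalization, median centring, leaving out dim probe sets, a replicate block, means of arrays 1-2, 3-4 and 5-6, even-numbered arrays, no CD34+ arrays 1, 3 and 5, trended robust eBayes, array weights, gene level and leaving out each array. Odd-numbered arrays alone were added after the data were seen. The number of arrays limits the precision. Sequences are from RefSeq, GRCm38.p6.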

Additional observations from a re-analysis of the deposited data

How the results depend on the processing

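Of 291 values that the alternatives gave for the differences of the 13 tested probe sets, 243 kept their direction and their side of the threshold, 21 changed sign, 15 gained a call and 12 lost one. Cd200 did so under all of them, and Cd9 under all but even-numbered arrays (-0.79, adjusted p = 0.0767). The count of member probe sets called higher, 1 with 12 arrays, was 4 after a further quantile normalization and without CD34+ arrays 1, 3 and 5, and 2 with dim probe sets left out, on odd-numbered arrays, with trended robust eBayes and with array weights, and was 1 to 3 on leaving out 1 array. The count called lower, 3, was 1 without the 3 arrays, 0 on even-numbered arrays (limma, with 1 at an unadjusted p under 0.05) and 2 to 3 on leaving out 1 array. Over all probe sets, 3439 were higher and 6265 lower. Median centring gave 1988 higher, even-numbered arrays 1070 higher and 1278 lower, the fit over genes 1454 higher and 3296 lower, leaving out the 3 arrays 3702 lower, and leaving out 1 array 2337 to 4753 higher and 5045 to 7565 lower. Of 139 genes in the 6 related lists, 13 were higher and 42 lower, against 8 and 13 on even-numbered arrays, 27 lower without the 3 arrays, 24 higher on odd-numbered arrays, 20 higher with every probe set and 10 to 24 higher on leaving out 1 array.

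Differences that changed sign were all uncalled on both sides. After quantile normalization Cd44 1434376_at was at 0.023, Cd24a 1416034_at at 0.195 and Prom1 at -0.093. Prom1 was at -0.097 after median centring and -0.053 on odd-numbered arrays, where Cd81 was at -0.096. On even-numbered arrays Podxl 1417396_at was at -0.078, Cd44 1434376_at at 0.066 and Cd24a 1416034_at at 0.236, and without the 3 arrays these were at -0.095, 0.089 and 0.244. Cd24a 1416034_at was at 0.0089 with array weights. On leaving out 1 array, Cd24a 1416034_at ran from -0.28 to 0.13 and Prom1 from -0.025 to 0.056. The causes were not tested. Same-numbered arrays of the fractions had deviations that correlated from -0.236 to 0.49, and 6 of 12 arrays correlated best with their own number. These mixed values do not settle if the same number marks the same isolation, and the labels do not say. The main fit did not take the numbers as pairs. With the number as a replicate block 2 member probe sets were higher and 3 lower, and 1437502_x_at of Cd24a passed (adjusted p = 0.0187).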
